A study of Mus musculus with 20 samples.

Results

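Solute carriers, the Slc genes, were described as a group by the N6-methyladenosine (m6A) peaks that carry their names in thymocytes with and without Mettl3. Members were all peaks whose gene symbol begins with Slc and a digit in the authors' deposited tables, with Slc2a1 and Slc2a3 left out. They were 180 of 13450 peaks in double-positive (DP) thymocytes, in 104 of 6618 genes. In invariant natural killer T (iNKT) cells they were 222 of 12542 peaks, in 132 of 6774 genes. The tables together held 156 Slc genes, of which 80 had a peak in both, 24 in DP cells only and 52 in iNKT cells only. Among all genes, 9003 had a peak in either table, 6618 in DP and 6774 in iNKT cells. Many genes of any name thus had a peak in a single table. The mitochondrial carriers of the Slc25 family made up 20 peaks in 15 genes in DP cells and 31 peaks in 18 genes in iNKT cells. The symbols of 4 genes name no carrier: Slc4a1ap, Slc7a6os, Slc9a3r1 and the pseudogene Slc2a4rg-ps.

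m6A is an internal mark of messenger RNA that is placed by a writer complex with Mettl3 as its catalytic subunit. C57BL/6 mice aged 6 to 8 weeks were wild type (WT) or Mettl3fl/flCD4-cre, in which floxed Mettl3 is deleted by a Cre under Cd4 control. DP cells were sorted as 7AAD-CD1d-Tet-CD4+CD8+ and iNKT cells as 7AAD-CD1d-Tet+TCRbeta+, and each genotype has 2 DP and 3 iNKT replicates of input RNA and as many of m6A-enriched RNA. The labels name m6A-seq and a low-input form based on LACE-seq, without saying which was used for which cells, so cell type and protocol cannot be told apart here. The sources used here do not say whether replicates were separate mice or pools.

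The tables hold 1 value per peak for the genotypes together and no value per library, so depth and replicate spread cannot be given, and every fold change and false discovery rate (FDR) below is the authors' own. No source used here states which way the log2 fold change points. The authors' deposited gene list held 62 of 62 Slc genes with a negative DP peak and 0 of 42 without one. For iNKT cells the authors' deposited gene list held 99 of 100 Slc genes with a negative peak and 0 of 32 without. These lists follow the negative sign but do not say whether it means loss or gain. Negative was read as less methylated after Mettl3 deletion on the assumption that the lists hold losses, which was not tested. Lower and higher have this assumed meaning throughout, and "passed" means a differential FDR of 0.05 or less. Mettl3 had 0 peaks in either table, so its deletion was not checked. Of the labelled cells' markers, 4 of 7 DP markers (Cd4, Cd8a, Cd8b1 and Rag1) had a DP peak and 6 of 6 iNKT markers (Cd44, Gata3, Il2rb, Klrb1c, Tbx21 and Zbtb16) had an iNKT peak. Of other cell types' markers, the myeloid genes Csf1r and Itgam had a DP peak, and their part in the results was not tested.

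Solute carriers move amino acids, sugars, ions, metals, vitamins and metabolites across membranes, each family with its own range of substrates. Most sit in the plasma membrane or in organelle membranes, whereas nearly all Slc25 carriers sit in the inner mitochondrial membrane and link the matrix with the cytosol. Developing and activated T cells rely on nutrient carriers, among them the leucine carrier Slc7a5 with its heavy chain Slc3a2, for growth and proliferation. In messenger RNA, m6A is found mainly near stop codons and in 3′ untranslated regions (UTRs), within a short motif around GAC.

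A few peaks reached a RefSeq start site, where the sequence could be shown. In iNKT cells 9 of 222 Slc peaks covered at least 10 of the first 50 transcribed bases, against 1 of 180 in DP cells. Among all peaks 800 of 12542 did so in iNKT cells and 211 of 13450 in DP cells, so the gap between the tables is not particular to Slc genes. Those 50 bases were searched on the gene's strand for GGAC or AAACT, which do not overlap each other. The 3 genes that matched are Slc41a2, Slc49a4 and Slc24a3, and each is printed 5′ to 3′ from RefSeq GRCm38.p6 with the motif in capitals.
Slc41a2: aacgcgagctGGACccccgacgagg
Slc49a4: gggaggccgaGGACtagagcagctc
Slc24a3: agcaggagagGGACcccgagcgcag
They lie at chr10:83337778-83337802 (minus strand), chr16:35769334-35769358 (minus strand) and chr2:145167778-145167802 (plus strand). The same letters were in 20.9% of 800 iNKT peaks that reached a start in this way and in 21.95% of 32851 RefSeq starts. None of the peaks of these 3 genes passed. In the authors' deposited table the start-site peak of Slc41a2, a magnesium carrier, had a log2 fold change of −0.32, and that of Slc49a4 had 1.0. The start-site peak of Slc24a3, a sodium, calcium and potassium exchanger, had −3.91 (FDR 0.49) with a fold enrichment over input of 133 in the authors' deposited table.

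In DP cells few peaks passed in the whole table and few of the Slc peaks. In the authors' deposited table, 0 of 180 passed as lower (0.743% of all peaks) and 1 as higher (0.483% of all peaks, and 1.23% in either direction). At an unadjusted p of 0.05, 11 were lower and 13 higher, against 6.5% and 6.18% of all peaks. The peak that passed belonged to Slc25a37, mitoferrin 1, which imports iron into mitochondria. Per the authors' deposited table it covered 690 nt of the 3′ UTR within chr14:69244723-69247638, with a log2 fold change of 0.63 and an FDR of 0.036. The next by FDR was a 3′ UTR peak of Slc43a2, a carrier of large neutral amino acids, at 0.80 with an FDR of 0.065 per the authors' deposited table. By the authors' deposited table, the log2 fold changes of all 180 lay between −3.00 and 2.75, with a median of 0.08 against 0.00 for all peaks. The share at 2-fold or more, in either direction, was 21.1% of Slc peaks and 18.7% of all peaks.

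In iNKT cells 50 of 222 Slc peaks (22.5%) passed, in 41 genes, against 25.7% of all peaks. There 37 were lower by the authors' deposited table, in 31 genes (19.8% of all peaks were lower), and 13 were higher, in 12 genes (5.84% of all peaks were higher). Of all genes with an iNKT peak, 33.4% had one that passed, 26.2% a lower and 9.64% a higher one. The passing lower Slc peaks had a median log2 fold change of −3.55, against −3.64 for all lower peaks. The passing higher Slc peaks had a median of 5.31, against 5.04 for all higher peaks. Over all Slc peaks the median was −0.74 there, by the authors' deposited table, and over all peaks it was −0.98. These shares and medians lie near those of the whole table.

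**Figure D1:**
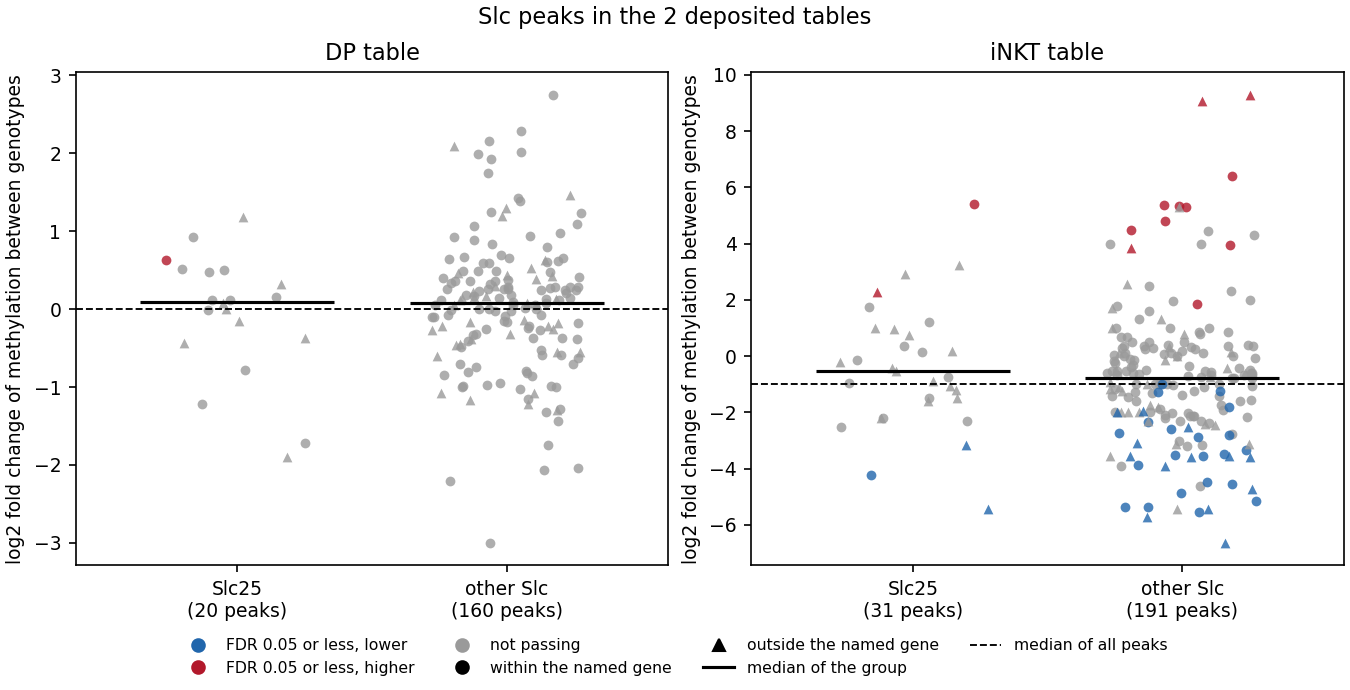
Each point is 1 peak named after an Slc gene, with its log2 fold change between genotypes (negative, assumed lower in Mettl3-deleted cells) on a separate vertical scale for DP and iNKT cells. Circles lie within the named gene and triangles outside it, solid lines are group medians and dashed lines the median of all peaks. DP peaks run from −3.00 to 2.75 with 1 that passed, and iNKT peaks from −6.64 to 9.30 with 37 lower and 13 higher.

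Many peaks with an Slc name lie outside that gene, most of them in another gene's span. Peaks were placed on RefSeq GRCm38.p6 gene spans, the assembly behind mm10, and 47 of 180 DP peaks (26.1%) and 66 of 222 iNKT peaks (29.7%) shared no base with the gene they are named after. Over all peaks the shares were 21.1% and 24.9%. Of these outside Slc peaks, 40 of 47 in DP and 53 of 66 in iNKT cells overlap another RefSeq gene. Over all outside peaks it was 2697 of 2837 and 2839 of 3121. A strand known to match was found for 33 DP and 40 iNKT Slc peaks, and the peaks that overlap no gene have no neighbour assigned. Of the 50 iNKT peaks that passed, 31 lay within the named gene (22 lower and 9 higher, in 25 genes) and 19 outside it (15 lower and 4 higher). Of the 156 Slc peaks within the named gene 19.9% passed, against 27.0% of all such iNKT peaks (20.9% lower and 6.1% higher). In the authors' deposited table the lowest value of all, −6.64 (FDR 5e-15), carries the name of the copper carrier Slc31a2 but lies in Fkbp15. The highest values lie outside the named gene too. In the authors' deposited table a peak named Slc35e4 had 9.30 (FDR 3.2e-16) and overlaps Tcn2, which encodes the vitamin B12 carrier transcobalamin 2. A peak named after the zinc carrier Slc30a9 had 9.09 (FDR 1.4e-10) in the authors' deposited table and lies in Tmem33.

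The converse also occurred, since 27 iNKT peaks lay in 22 Slc genes, on their strand, but were named after a gene of no Slc name that they did not touch. Of these 7 passed, all lower. The cationic amino acid carrier Slc7a1 holds such a peak at −3.64 (FDR 0.014), named Mtus2 in the authors' deposited table. Slc35e1 holds one at −5.84 (FDR 1.2e-06) named Cherp, whereas the peak named Slc35e1 that passed (−3.57, FDR 3.4e-05) lies in Med26, per the authors' deposited table. A further 2 iNKT and 3 DP peaks named after one Slc gene lay on the strand of another, and none passed. With all of these added to those within the named gene, 185 iNKT peaks were counted within an Slc gene, 29 lower and 9 higher. In DP cells 157 were, with 0 lower and 1 higher. Peaks under another name in an Slc gene of unknown strand were not searched for, so these are not full totals. Where strand was known, 98 of the Slc iNKT peaks lay on the named gene's strand and 7 on the opposite one. Strand was not known for the named gene of 51 more.

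**Figure D2:**
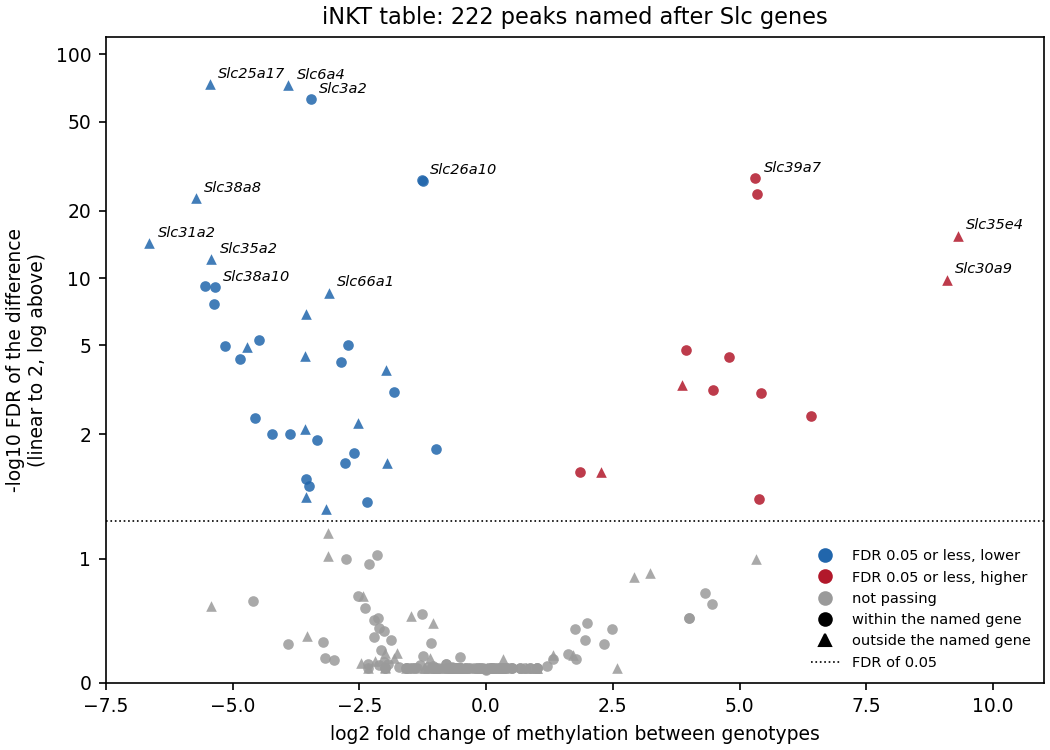
Each point is 1 of the 222 iNKT Slc peaks, with its log2 fold change against the negative log10 of the FDR (linear to 2 and logarithmic above); circles lie within the named gene and triangles outside it. Of the 3 peaks with the smallest FDR, those named Slc25a17 and Slc6a4 lie outside the named gene and that of Slc3a2 lies within it.

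Of 33 iNKT peaks of amino acid carriers 10 were lower (30.3%, Wilson 95% interval 17.4 to 47.3%) and 1 higher. The interval covers the 19.8% of all peaks, but it treats peaks as separate although some genes hold several, such as Slc43a2 with 6. Of the 27 within the named gene 7 were lower and 1 higher. The counts of all classes are small and are read against the 19.8% lower and 5.84% higher among all iNKT peaks. Both chains of the leucine carrier were lower. The heavy chain Slc3a2 had 3 iNKT peaks in the authors' deposited table, of which the one at the 5′ UTR (chr19:8713540-8713749) had −3.46 with an FDR of 1e-63. The other Slc3a2 peaks, 61 nt each, had 1.33 and 1.62 and did not pass by the authors' deposited table. The light chain Slc7a5 had 1 peak, at the 3′ UTR (chr8:121882346-121882585), at −3.56 with an FDR of 0.023 per the authors' deposited table.

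The glutamine and neutral amino acid carriers Slc1a5 and Slc38a1 were lower as well. The authors' deposited table gives −2.86 (FDR 5.9e-05) for the single Slc1a5 peak, at the 5′ UTR (chr7:16781727-16781966). Slc38a1 had 4 iNKT peaks, of which 1 in the 3′ UTR passed at −0.98 (FDR 0.013), the only passing Slc peak under 2-fold in the authors' deposited table. The taurine carrier Slc6a6 had the lowest value within a named gene, −5.55 (FDR 6.3e-10) in the 3′ UTR at chr6:91758676-91758916, per the authors' deposited table. Slc38a10, of the same family as Slc38a1, had exon peaks at −5.35 and −2.73 (FDR 8.3e-10 and 1e-05) and a 3′ UTR peak at −0.68 that did not pass by the authors' deposited table. In the other direction, a 61 nt exon peak of Slc43a1, a leucine-preferring carrier, had 5.39 with an FDR of 0.033 per the authors' deposited table. The class also holds names whose passing peaks lie elsewhere. Those of the serotonin carrier Slc6a4 (−3.90, in Nsrp1), Slc38a8 (−5.73, in Mbtps1) and Slc3a1 (−2.53, in Ppm1b) are examples from the authors' deposited table.

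Monocarboxylate carriers had 11 iNKT peaks, 2 lower and 0 higher. Slc16a1, the lactate carrier MCT1, had −3.50 (FDR 0.026) in an exon at chr3:104655622-104655711, and Slc16a6 had −5.36 (FDR 2.3e-08) in an exon, per the authors' deposited table. Both peaks of Slc16a3, another lactate carrier, did not pass, at −0.78 and 0.41 in the authors' deposited table.

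Vitamin and choline carriers had 14 iNKT peaks, 4 lower and 1 higher, and the higher one, named Slc44a4, lies in Ehmt2. Slc44a2, a choline-like carrier, was the Slc gene with the most passing peaks, 3, all in its 3′ UTR. In the order of transcription they had −1.82 (FDR 8.3e-04), −3.33 (FDR 0.011) and −4.47 (FDR 5.2e-06) in the authors' deposited table. The riboflavin carrier Slc52a2 had −4.56 (FDR 0.0043) in its 3′ UTR in the authors' deposited table. The folate carriers Slc19a1 (0.29) and Slc46a1 (−3.17, FDR 0.63) did not pass by the authors' deposited table.

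Ion exchangers had 27 iNKT peaks, 5 lower and 2 higher. Of the lower ones 2, named Slc12a8, lie in Zfp148, at −3.58 and −3.55 in the authors' deposited table. Slc26a10 had peaks on both strands of nearly the same interval, and these had −1.27 and −1.25 (FDR 4e-28 and 5e-28) in the authors' deposited table. They are counted as 2 peaks although they overlap, and the one at −1.25 lies on the strand opposite to the gene. The anion exchanger Slc26a11 had a higher exon peak at 4.79 (FDR 3.6e-05) in the authors' deposited table.

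Metal carriers had 26 iNKT peaks, 4 lower and 4 higher. Of the higher ones 2 overlap at 1 place in Slc39a7 and that named Slc30a9 lies in Tmem33. Within the named gene 1 was lower and 3 higher of 19. Slc39a7, the zinc carrier ZIP7 of the endoplasmic reticulum, had overlapping exon peaks at 5.31 and 5.34 (FDR 1.3e-28 and 2e-24) in the authors' deposited table. These are 2 rows for 1 place, chr17:34030826-34031094 and chr17:34030839-34031078. On the same strand, the gene's span also holds an overlapping pair named H2-Ke6 at −3.26 and −3.36 (FDR 1e-18 and 3.2e-18) in the authors' deposited table, so Slc39a7 has peaks of both signs when placed by position. Slc39a14, a zinc and iron carrier, had 6.41 (FDR 0.0038) in its 3′ UTR, the highest value within a named gene in the authors' deposited table. A further 3′ UTR peak of Slc39a14 had −0.13 and an exon peak 4.0, and neither passed in the authors' deposited table. Slc39a6, the zinc carrier ZIP6, was lower at −4.85 (FDR 4.3e-05) in an exon in the authors' deposited table.

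Sugar and nucleotide sugar carriers had 42 iNKT peaks, the most of any class, with 5 lower and 2 higher. Within the named gene 2 were lower and 1 higher of 32. Slc35c2 (−2.60, FDR 0.014) and the glucose carrier Slc5a2 (−2.79, FDR 0.017) were lower in the authors' deposited table, and the Slc5a2 peak also overlaps Rusf1. Slc35a4 was higher at 4.48 (FDR 6.9e-04) in the authors' deposited table. Of 21 peaks of organic ion carriers, 1 within the named gene passed, that of the vesicular nucleotide carrier Slc17a9 at 1.85 (FDR 0.02) in the authors' deposited table. None of the 5 peaks named after the phosphate importers Slc20a1 and Slc20a2 passed, with values from −2.08 to 1.0 in the authors' deposited table. The Slc20a1 peak at 1.0 and the Slc20a2 peak at −0.74 lie outside the named gene. Of the names that are no carriers, Slc4a1ap (−3.86, FDR 0.01) and Slc9a3r1 (−2.35, FDR 0.035) were lower in the authors' deposited table.

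**Figure D3:**
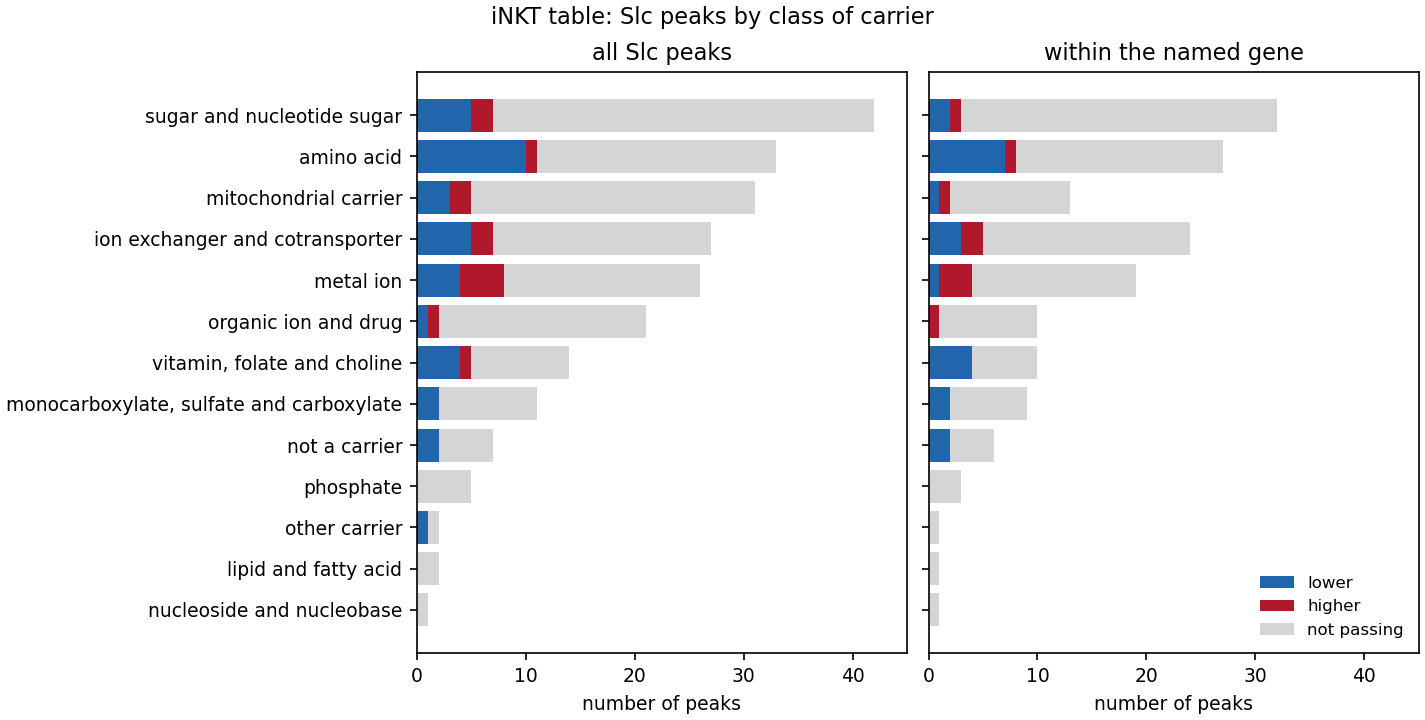
Bars give the number of iNKT Slc peaks by class of carrier, split into lower, higher and not passing, for all peaks (left) and for those within the named gene (right). Amino acid carriers have 10 lower and 1 higher of 33, and metal carriers 4 lower and 4 higher of 26.

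The Slc25 carriers were compared with the other Slc genes. In iNKT cells 5 of 31 Slc25 peaks passed (16.1%, Wilson 95% interval 7.09 to 32.6%), 3 lower and 2 higher. Of the other Slc peaks 45 of 191 passed (23.6%, Wilson 95% interval 18.1 to 30.1%), 34 lower and 11 higher. Within the named gene 2 of 13 Slc25 peaks and 29 of 143 others passed. In DP cells 1 of 20 Slc25 peaks and 0 of 160 others passed. The iNKT intervals overlap, and they cover the number of peaks only and not the spread between mice. They also treat peaks of the same gene as separate. By the authors' deposited table the median log2 fold change was −0.53 for Slc25 and −0.76 for the others. Fold enrichment over input had a median of 6.65 for Slc25 and 8.60 for the others in the authors' deposited table. Lower peaks were mostly strong peaks, which was not so for higher ones. By the authors' deposited table, 53.4% of all peaks with a peak p below 1e-50 were lower and 4.61% higher, and among weaker ones 3.50% and 6.45%. For Slc peaks it was 30 lower and 4 higher of 60 strong ones, and 7 and 9 of 162 weaker ones. With both directions together, 4 of 6 strong Slc25 peaks and 30 of 54 other strong Slc peaks passed, against 58.1% of all strong peaks. Among weaker peaks it was 1 of 25 and 15 of 137, against 9.94% of all.

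Slc25 names were often given to peaks elsewhere. In iNKT cells 18 of 31 Slc25 peaks (58.1%) lay outside the named gene, against 24.9% of all peaks, and in DP cells 8 of 20 (40.0%) against 21.1%. Of the 5 that passed, 2 lay within. One was Slc25a37 at −4.23 (FDR 0.01) in its 3′ UTR, chr14:69244753-69245172, per the authors' deposited table. The other was Slc25a11, the oxoglutarate and malate carrier, whose 61 nt peak at the 5′ UTR had 5.42 (FDR 8.5e-04) in the authors' deposited table and also overlaps Rnf167. The peak named after the peroxisomal carrier Slc25a17 had −5.45 (FDR 4e-74) in the authors' deposited table and lies in the span of St13. All 4 iNKT peaks named Slc25a25 and all 4 named Slc25a47 lay outside those genes, and none passed. Slc25a28, the other mitoferrin, had −2.52 (FDR 0.2) and the NAD carrier Slc25a51 had −0.94 (FDR 0.76) in the authors' deposited table, neither of which passed.

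Peaks at the same place in both tables were set side by side, with at least 1 shared base on the same strand. There were 92 such pairs in 61 Slc genes, from 81 DP peaks (45.0%) and 88 iNKT peaks (39.6%). Both peaks of these pairs carry an Slc name, and a further 4 pairs with an Slc name in a single table were left out. For all peaks, paired under any name, the shares were 36.4% and 42.7%. Over all Slc pairs the median log2 fold change was 0.11 in DP and −1.94 in iNKT cells, against 0.08 and −1.83 over the pairs of all genes, per the authors' deposited tables. Of the 37 lower iNKT Slc peaks 35 (94.6%) shared bases with a DP peak of any name, against 82.6% of all lower peaks. Of the 13 higher ones 4 (30.8%) did, against 19.2% of all higher peaks. Of the 172 that did not pass, 52 (30.2%) did, against 33.9%. In the 32 pairs of Slc peaks that were lower in iNKT cells, the DP values ran from −0.80 to 1.99 with a median of 0.01, and 16 were negative, per the authors' deposited tables. The iNKT median of those pairs was −3.55. Each table lists its own peaks, and the difference between them was not tested.

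The following pairs were chosen because the iNKT peak passed, so their iNKT values are far from 0 by that choice. The authors' deposited tables give Slc3a2 −0.08 in DP and −3.46 in iNKT cells, Slc1a5 0.28 and −2.86, Slc6a6 0.07 and −5.55, and Slc16a6 0.98 and −5.36. For Slc7a5 they give 0.58 and −3.56. Slc17a9 was near 2 in both, at 2.01 in DP (FDR 0.62) and 1.85 in iNKT cells (FDR 0.02), per the authors' deposited tables. One pair passed in both tables, that of Slc25a37, with 420 shared bases, 0.63 in DP and −4.23 in iNKT cells per the authors' deposited tables. Over all genes, 86 pairs passed in both, of which 42 had opposite signs and 41 of those were higher in DP and lower in iNKT cells.

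By the authors' annotation, 60.0% of DP Slc peaks lay in 3′ UTRs, against 45.5% of all DP peaks, and 29.4% in other exons, against 45.9%. In iNKT cells 48.2% lay in 3′ UTRs, against 45.2%, and 14.4% in 5′ UTRs, against 14.7%. Slc25 peaks lay in 3′ UTRs in 65.0% of cases in DP and 61.3% in iNKT cells. Of the 107 iNKT 3′ UTR peaks of Slc genes 20 were lower and 5 higher, where all 3′ UTR peaks had 22.2% and 5.18%. Of the 32 5′ UTR peaks 3 were lower and 1 higher, where all had 13.8% and 8.25%. Of the 79 exon peaks 14 were lower and 7 higher, where all had 19.5% and 5.67%. Some genes had many peaks of which none passed. Slc43a2 had 6 iNKT peaks, all negative, between −2.76 and −0.24 in the authors' deposited table, and none passed. The 5 iNKT peaks of the anion exchanger Slc4a2 lay between −1.88 and 0.12 in the authors' deposited table, and none passed either. In Slc43a2 and Slc4a2 some of these peaks overlap each other, so they are not all separate places.

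Carriers and pumps of related function under other names were taken from lists chosen by function, and their iNKT counts are again set against 19.8% lower and 5.84% higher peaks overall. Ucp2, a mitochondrial carrier of the Slc25 family, had higher peaks that passed in both tables, but in different parts of the transcript. The authors' deposited tables give its DP 3′ UTR peak 0.51 (FDR 0.047) and its iNKT peaks 1.01 (FDR 0.0047, 5′ UTR), 4.09 (FDR 0.043, exon), 1.49 and 0.20, the last pair not passing. With Mtch1, Mtch2 and Ucp3, the 7 iNKT peaks of this list held 0 lower and 2 higher. The list of the mitochondrial pyruvate carrier, sideroflexins and ion channels had 7 iNKT peaks in 6 genes, and 0 passed. ATP-binding cassette transporters had 18 iNKT peaks, 2 lower and 1 higher, and the higher one, named Abca7, lies in Cnn2. Their 12 DP peaks held 1 that passed, a 3′ UTR peak of Abcc5 at −0.52 (FDR 0.025) per the authors' deposited table. The cholesterol exporter Abcg1 had −3.67 (FDR 1.4e-04) and the lysosomal peptide transporter Abcb9 −2.50 (FDR 3.6e-07) in the authors' deposited table. Ion pumps had 15 iNKT peaks, 2 lower and 1 higher, with the sodium pump subunit Atp1b3 at −3.07 (FDR 1e-15) and the calcium pump Atp2b1 at −2.82 (FDR 6.6e-04) in the authors' deposited table. Transporters of Slc type with other names had 13 iNKT peaks, 2 lower and 4 higher. Those lower were both of Mfsd5, at −4.81 and −3.58 in the authors' deposited table. Of the 4 higher ones, 2 lay within Mfsd10, both at 7.69, and 1 named Mfsd10 lay in Add1, per the authors' deposited table.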

How the data were processed

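m6A was measured in 20 libraries (8 groups). Per the submitters' processing notes, reads were handled with HOMER 4.9.1, RSEM 1.3.0, STAR 2.6.0a, Trim Galore 0.6.5 and FastQC 0.11.5, in no stated order, on build mm10. The deposited tables are titled and laid out as exomePeak output, whose version and any pooling were not given in the sources used here. Per the file headers, the deposited tables give each peak's p-value, its fold enrichment as a ratio of immunoprecipitate to input, a log2 fold change between genotypes, and log10 p and FDR, treated as scores. The deposited gene lists hold other entries, symbols without values.

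Repeated rows were counted once (5 removed in DP and 24 in iNKT, 0 of them Slc). Members passed at an FDR of 0.05. Peaks were placed on RefSeq GRCm38.p6 spans, with strand taken from its promoter table where listed. Classes follow the family number in the symbol. Shares have Wilson 95% intervals. No test was run, since no values per library were used, and depth is unknown. Members and lists were chosen with earlier results of these data known. Genes named by rule were all that passed in DP, the 8 lowest, 8 highest and 8 with the smallest FDR that passed in iNKT, every passing Slc25 gene, genes passing with both signs or in both tables, and those with the most peaks, some of which are not reported here. Others were named for their function or to show a range, after their values were seen. Scripts ran in Python 3.11.15 with pandas 2.3.3, numpy 2.4.6, matplotlib 3.10.9 and SciPy 1.17.1.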

Additional observations from a re-analysis of the deposited data

How the results depend on the processing

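Of 93 values recomputed under 11 settings, 79 stayed within 1.5 times the reported count or within the reported interval, and 14 did not. Of the settings, 3 were chosen after seeing the data (opposite-strand peaks left out, names of no carrier left out, overlapping peaks counted once). At an FDR of 0.01, 0 DP Slc peaks were higher, 0 DP genes and 0.0% of DP Slc25 peaks passed, and in iNKT cells 6.45% of Slc25 and 17.3% of other Slc peaks passed. At an FDR of 0.1, 3 DP peaks were higher, in 3 genes. With at least a 2-fold change, 0 DP peaks were higher, 0 DP genes passed and 0.0% of DP Slc25 peaks passed. Counting only peaks within the named gene left 22 lower iNKT peaks and 25 iNKT genes that passed, and 21 and 25 with the opposite strand left out. Requiring 50% of the shorter peak to be shared left 84 pairs. No value reversed. No paired analysis was possible because the tables hold no values per library, and leaving out single replicates was not run for the same reason. The motif alternatives were not run, since no genome was used here. Without depth per library, precision per peak is unknown.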
